A study of Mus musculus with 4 samples.

Results

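The genes described here encode the subunits, assembly factors and regulators of the proteasome, measured by RNA sequencing in mouse alveolar epithelial type II cells. They were taken by symbol, as every gene of the count table named Psma to Psmg followed by a digit, pseudogenes left out, which gave 50 of 25759 symbols. By role they were 7 subunits of the alpha ring of the 20S core, 7 of its constitutive beta ring, 3 immunoproteasome subunits, 2 tissue-restricted core subunits, 6 ATPases and 11 other subunits of the 19S cap, 3 assembly factors of the cap, 4 assembly chaperones of the core, and 6 activators or inhibitors. The remaining member, Psmc3ip, shares the naming pattern but encodes a cofactor of meiotic recombination and is no proteasome part. A filter on low counts was passed by 48 of the 50.

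The study compared type II cells of wild-type (WT) C57BL/6 mice with those of C57BL/6 mice whose genotype is given as Sftpc-mTOR transgenic (mTOR Tg), all 14 weeks old, with 2 samples in each group. The transgenic animals carry active mTOR, a kinase that promotes protein synthesis and growth, under conditional control. Sftpc, the surfactant protein C gene named in the genotype, is a type II cell gene, and its promoter is commonly used to direct transgenes to these cells. Whether a sample is 1 mouse or a pool, how the transgene was switched on and which allele it carries were not given in the labels. The p-values below therefore measure only how far these samples spread, which may be technical.

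The proteasome degrades proteins that carry ubiquitin chains. Its 20S core is a barrel of alpha subunits, which form the gate, and beta subunits, of which Psmb5, Psmb6 and Psmb7 cut peptide bonds. Under interferon the catalytic subunits Psmb8, Psmb9 and Psmb10 can take their places and form the immunoproteasome, which makes peptides for class I antigen presentation. The 19S cap binds ubiquitin chains, removes them and, through its ring of ATPases, unfolds the substrate and feeds it into the core. mTOR signalling has been linked to proteasome levels through the transcription factor Nfe2l1, and type II cells, which make and secrete surfactant proteins, depend on protein quality control.

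The 4 libraries held 18146693 to 21972124 counts, so that the floor of 3 counts lay between 0.137 and 0.165 CPM, that is counts scaled to the library total; normalised CPM, used for single genes below, are scaled to the TMM library sizes. The type II cell gene Sftpc took 6.35% to 7.61% of the counts in every library. Of 8 type II markers, 5 were lowest in mTOR Tg replicate 1 by a wide margin: Abca3, for one, had 1328 CPM there beside 2306, 2287 and 2359 in the others, and Slc34a2, Lamp3, Etv5 and Lpcat1 were alike. The club cell gene Scgb1a1 took 7.11% and 7.55% in WT replicates 1 and 2, 13.9% in mTOR Tg replicate 1 and 4.52% in mTOR Tg replicate 2. Across all 13306 genes tested, mTOR Tg replicate 1 had Pearson correlations of 0.951 to 0.954 with the other libraries, which correlated with each other at 0.983 to 0.988. It stands apart, so each result below is given for both transgenic libraries separately.

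Proteasome transcripts made up a larger share of the counts in mTOR Tg replicate 1 than in the other 3 libraries, and mTOR Tg replicate 2 was close to WT. The 50 genes summed to 0.270% of the counts (exact binomial 95% interval 0.268 to 0.273) in WT replicate 1 and 0.278% (0.275 to 0.280) in WT replicate 2. In mTOR Tg replicate 1 they summed to 0.346% (0.343 to 0.348), and in mTOR Tg replicate 2 to 0.280% (0.278 to 0.282). These intervals cover counting error only. The interval of mTOR Tg replicate 1 lay well above the others, that of mTOR Tg replicate 2 overlapped that of WT replicate 2, and WT replicate 1 lay a little below both. The group means were 0.274% ± 0.00540 (SD, n = 2) in WT and 0.313% ± 0.0464 (SD, n = 2) in mTOR Tg, with an exact two-sided permutation p of 0.333, the smallest that 2 samples against 2 can give. In bulk RNA a change in the number of cells of a type and a change in RNA per cell cannot be told apart. Summed club cell markers moved with the same library: 162297 CPM there, 84755 and 91015 in WT, and 56878 in the other transgenic library. Summed ciliated cell markers stood at 2303 beside 1025, 1234 and 1103 in the same order. Of the ciliated markers, Foxj1, Tppp3, Tekt1, Rsph1 and Pifo were highest in that library. Ccdc39 (33.1 beside 40.9, 56.9 and 50.9 CPM) and Dnah5 (53.9 beside 68.6, 98.7 and 84.5) were instead lowest in mTOR Tg replicate 1. Summed type I cell markers were also highest in mTOR Tg replicate 1, at 1876 CPM. They stood at 1479 and 1386 in WT and 1572 in the other transgenic library. The type II markers summed to 97801 CPM in mTOR Tg replicate 1, beside 120056 and 102789 in WT and 123329 in the other transgenic library, so they stood lower. The part of these cells in the result was not tested.

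**Figure D1:**
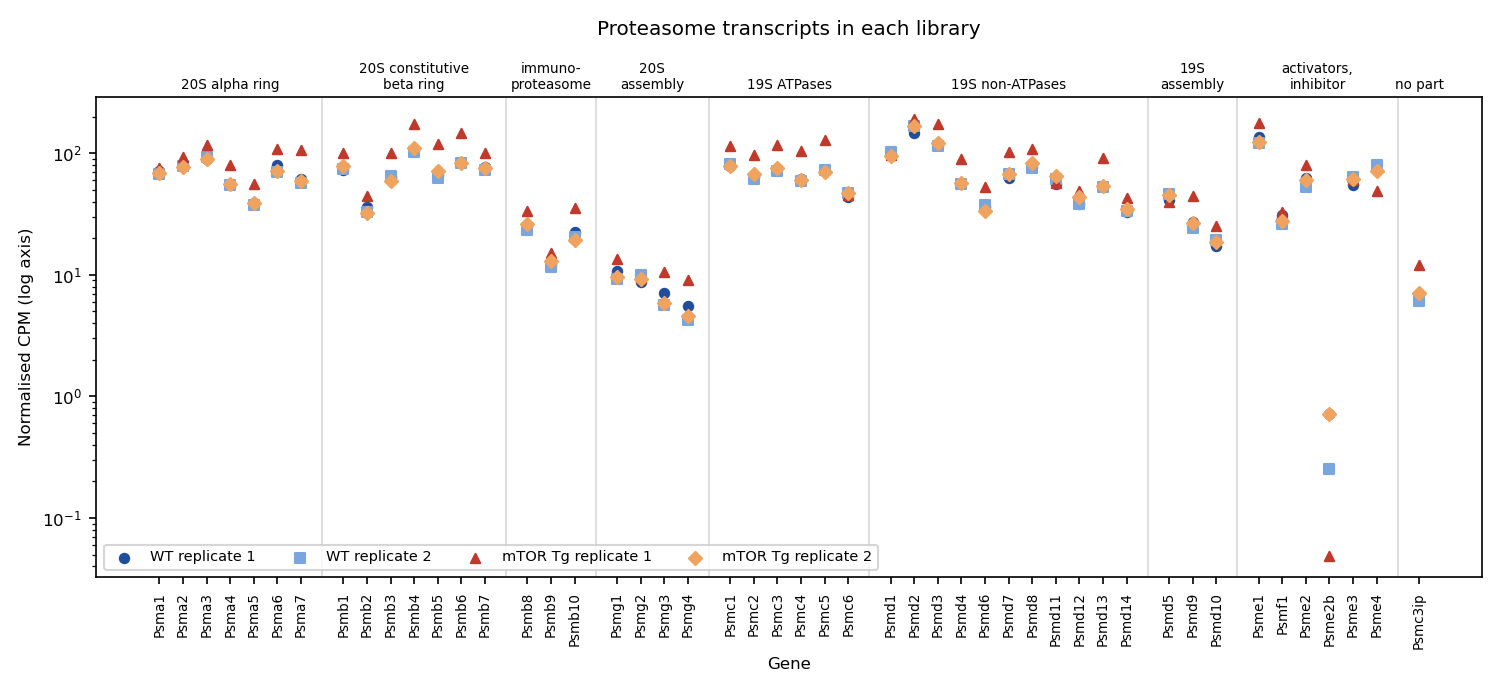
Normalised CPM (log axis) of each detected proteasome gene in the 4 libraries, ordered by role along the x axis, with 1 point per library. The points of mTOR Tg replicate 1 are the highest for 40 of the 48 tested genes, where 40.8% of all genes tested had that library highest. The other 3 libraries lie close together except for Psme2b, at 0.713, 0.253 and 0.718.

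No member passed the test between genotypes. In edgeR's quasi-likelihood test 0 of 48 members had an adjusted p under 0.05 in either direction, where the whole table gave 0 of 13306 (0% higher and 0% lower). The lowest unadjusted p among them was 0.101, for Psmb5, and 0 members were under 0.05, as 2.46% of all genes were; DESeq2, which called 13 of 17700 genes, and limma-voom, which called 0, also called 0 members. The fitted log2 fold change (mTOR Tg over WT) was above 0 for 43 of 48 members, beside 50.9% of all genes, with a median of 0.28 beside 0.01. Both transgenic libraries lay above both WT libraries for 15 members of 48, where 17.6% of all genes did, and below both for Psmd1 and Psme4, where 17% did, so the share of members above is higher than the background and that below is lower.

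The difference was carried by mTOR Tg replicate 1. Relative to the mean of the WT libraries, the median member was 0.50 higher on the log2 scale in that library, 0.02 higher in mTOR Tg replicate 2, and WT replicate 2 differed from WT replicate 1 by a median of -0.03. More than 0.5 above WT were 24 members in mTOR Tg replicate 1. By contrast 47 of 48 members in mTOR Tg replicate 2 lay within 0.2 of the WT mean, the exception being Psme2b, which had 15 counts there. The share of all genes past these limits was not counted. The median of all genes tested was 0.0114 in mTOR Tg replicate 1 and -0.0001 in mTOR Tg replicate 2. The members lay above both WT libraries in 83.3% of cases in mTOR Tg replicate 1, where 44.7% of all genes did, and in 37.5% in mTOR Tg replicate 2, where 35.1% did, which is near the background. With mTOR Tg replicate 2 left out, edgeR called 34 members higher and 1 lower, where 21.8% and 23.6% of all genes were called in these directions. In that comparison the lone transgenic library is assumed to vary like the WT samples. With mTOR Tg replicate 1 left out instead, 0 members were called, where 1.25% of genes were called higher and 0.948% lower, and 29 of 48 members had a positive fold change, with a median of 0.02.

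**Figure D2:**
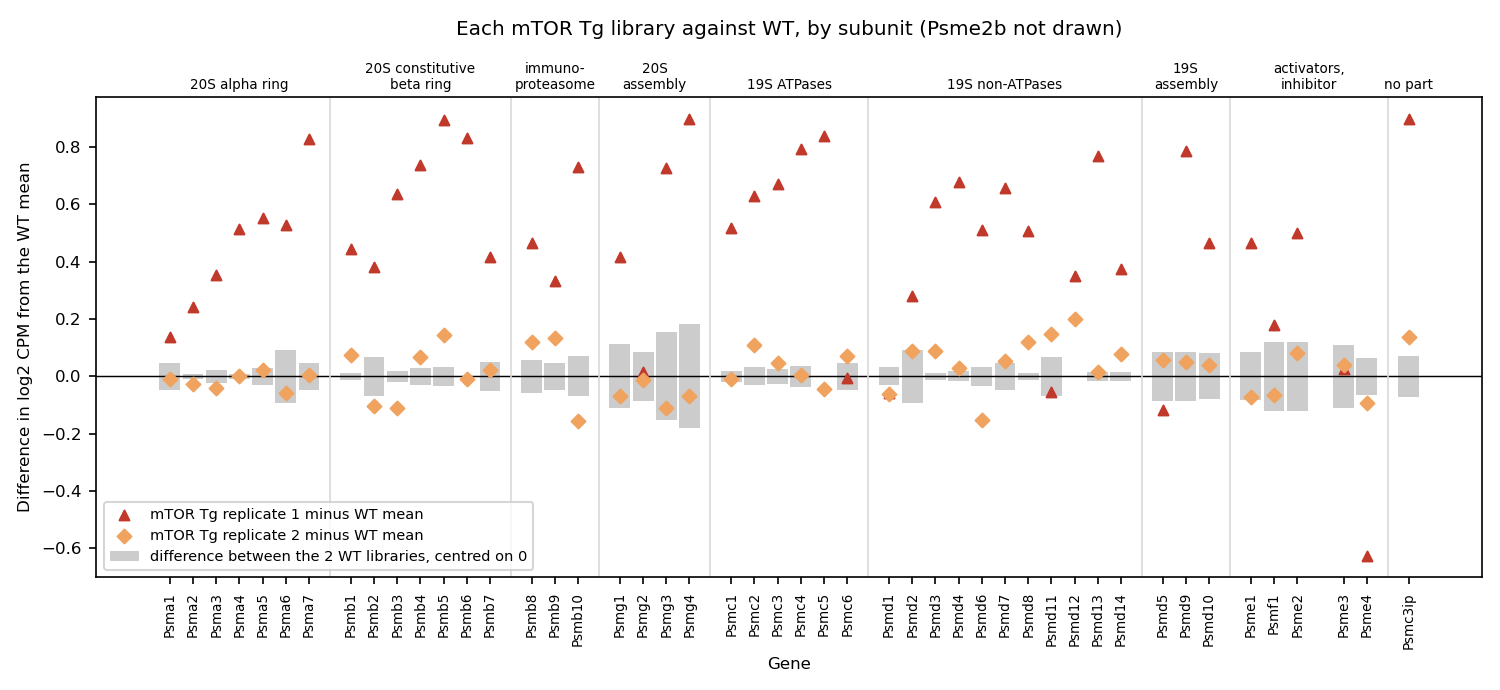
Difference in log2 CPM of each transgenic library from the WT mean, for 47 tested genes ordered by role; Psme2b, with 1 to 15 counts per library, is not drawn. mTOR Tg replicate 1 lies above 0.5 for 24 genes, and mTOR Tg replicate 2 stays within 0.2 of 0 for all the genes drawn.

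The alpha ring of the core closes the barrel and docks its activators. All 7 subunits had a fold change above 0, between 0.07 and 0.47 on the log2 scale, with a median of 0.26, and none passed the test. Psma7, an alpha ring subunit, had 61.1, 57.3, 105 and 59.3 normalised CPM; values of the 4 libraries stand here and below in the order WT replicate 1, WT replicate 2, mTOR Tg replicate 1, mTOR Tg replicate 2. Only mTOR Tg replicate 1 stood out, and the other transgenic library lay between the WT values. Its log2 fold change was the highest of the ring, 0.47 (SE 0.31). Psma1, at the other end, had 71.4, 66.9, 76.0 and 68.7 normalised CPM and its log2 fold change was 0.07 (SE 0.19). In 0 of the 7 alpha subunits were both transgenic libraries above both WT libraries, where 17.6% of all genes had that order.

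The constitutive beta ring carries the cutting activity. Its 7 subunits had log2 fold changes between 0.16 and 0.57, with a median of 0.31, of 0.64 in mTOR Tg replicate 1 and of 0.02 in mTOR Tg replicate 2. Psmb5 (chromosome 14, 54614119 to 54618022 of GRCm38, minus strand) encodes the subunit with chymotrypsin-like activity. It had 1202, 1247, 2446 and 1488 counts, or 66.0, 63.0, 119.9 and 71.2 normalised CPM. Both transgenic libraries were above both WT libraries, the first by far more than the second. The log2 fold change of 0.57 (SE 0.29) was the largest of all proteasome subunits as counted, with an edgeR adjusted p of 0.860. Psmb6 (chromosome 11, 70525367 to 70527858, plus strand), the caspase-like subunit, had 82.8, 82.6, 147 and 82.3 normalised CPM. The second transgenic library was just below both WT libraries, and the log2 fold change was 0.47 (SE 0.31). Psmb7 (chromosome 2, 38588036 to 38644087, minus strand), the trypsin-like subunit, had 77.5, 72.3, 99.9 and 76.1 normalised CPM, with the second transgenic library between the WT values and a log2 fold change of 0.23 (SE 0.22). Psmb2, a subunit without cutting activity, was lowest in mTOR Tg replicate 2, at 36.1, 32.8, 44.8 and 32.0 normalised CPM, and had the smallest fold change of the ring (0.16, SE 0.24).

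The immunoproteasome subunits had lower levels than their constitutive counterparts in every library. Psmb8 (chromosome 17, 34197721 to 34201454, plus strand), which takes the place of Psmb5, had 458, 459, 681 and 549 counts, or 25.1, 23.2, 33.4 and 26.3 normalised CPM. Both transgenic libraries were above both WT libraries, with a log2 fold change of 0.30 (SE 0.22). Psmb9 (chromosome 17, 34181987 to 34187764, minus strand), which takes the place of Psmb6, had 224, 228, 306 and 273 counts, or 12.3, 11.5, 15.0 and 13.1 normalised CPM. Here too the groups did not overlap, with a log2 fold change of 0.24 (SE 0.22). Psmb10 (chromosome 8, 105935735 to 105938444, minus strand), which takes the place of Psmb7, had 409, 403, 725 and 401 counts, or 22.4, 20.4, 35.6 and 19.2 normalised CPM. It was highest in mTOR Tg replicate 1 and lowest in mTOR Tg replicate 2, and its log2 fold change of 0.35 (SE 0.33) rests on the first. All 3 had an edgeR adjusted p of at least 0.860.

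Set against its counterpart within each library, the immunoproteasome share did not move one way. Per transcript length, Psmb8 stood at 21.0%, 20.3%, 15.4% and 20.4% of Psmb5. Psmb9 stood at 8.76%, 8.23%, 6.02% and 9.37% of Psmb6. Psmb10 stood at 25.6%, 24.9%, 31.5% and 22.3% of Psmb7. For mTOR Tg replicate 1 the Psmb8 and Psmb9 ratios were the lowest of the 4 libraries and the Psmb10 ratio the highest, and in mTOR Tg replicate 2 only the Psmb8 ratio lay within the WT values. The sums of the 3 gave 17.1%, 16.2%, 14.5% and 16.3%. The difference in log2 ratio between genotypes was -0.22 for Psmb8 to Psmb5, -0.18 for Psmb9 to Psmb6, 0.07 for Psmb10 to Psmb7 and -0.10 for the sums. Exact permutation p-values over these 4 comparisons were 0.667 to 1, and 1 after Benjamini-Hochberg adjustment. With 2 samples against 2 this permutation test cannot give a p below 0.333, so it could not have detected a shift in any ratio. Leukocytes carry immunoproteasomes, and all their listed markers but Lyz2 and Cd68 were at or near 0: Ptprc had 0, 3, 0 and 3 counts, Marco had 1 count over all libraries, Laptm5 had 0, 7, 10 and 3, Coro1a had 1, 1, 3 and 1, and Cd3e and C1qb had 0. Cd68, a macrophage gene, had 85, 50, 70 and 77 counts, with no order by genotype. The leukocyte list without Lyz2, which mouse type II cells also express, summed to 4.74, 3.21, 3.78 and 4.24 CPM, nearly all of it Cd68.

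**Figure D3:**
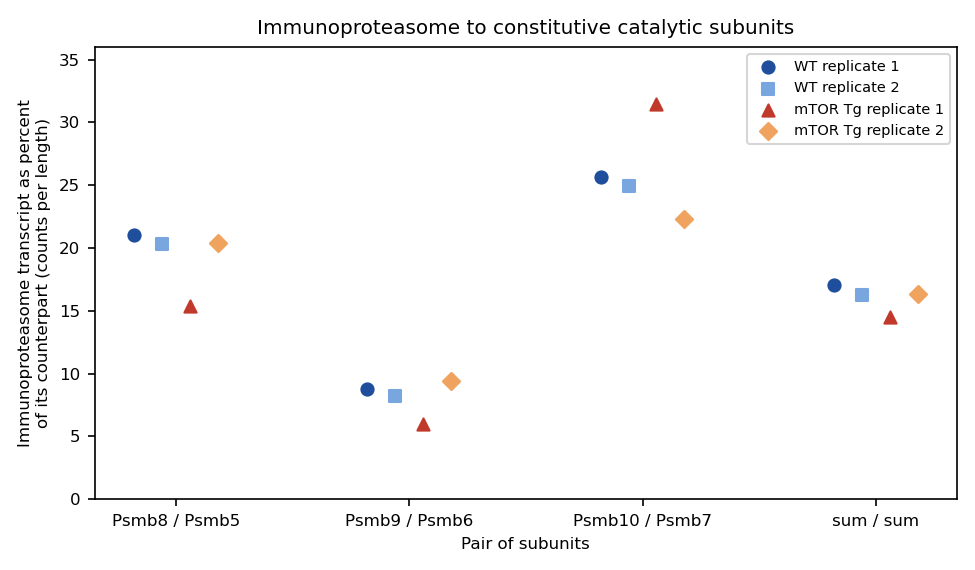
Immunoproteasome transcript as a percentage of its constitutive counterpart, from counts per transcript length, with 1 point per library and pair, and the sum of the 3 at the right. mTOR Tg replicate 1 is lowest for Psmb8 to Psmb5 (15.4%) and Psmb9 to Psmb6 (6.02%) and highest for Psmb10 to Psmb7 (31.5%).

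The promoter windows of Psmb5 and Psmb6, and of the immunoproteasome subunits that replace them, are printed because the comparison of the core turns on these pairs. They are the RefSeq sequences of GRCm38.p6, from 250 bases before to 50 bases after the RefSeq start, which is not always the outermost start of the gene given above. They lie at chr14:54617946-54618245 (minus strand) for Psmb5, chr11:70525107-70525406 (plus) for Psmb6, chr17:34197945-34198244 (plus) for Psmb8 and chr17:34187281-34187580 (minus) for Psmb9. Capitals mark the antioxidant response element TGACNNNGC, the kind of site bound by Nfe2l1 and Nfe2l2, in Psmb5 and Psmb6, and a CCAAT box on the reverse strand in Psmb9.
Psmb5: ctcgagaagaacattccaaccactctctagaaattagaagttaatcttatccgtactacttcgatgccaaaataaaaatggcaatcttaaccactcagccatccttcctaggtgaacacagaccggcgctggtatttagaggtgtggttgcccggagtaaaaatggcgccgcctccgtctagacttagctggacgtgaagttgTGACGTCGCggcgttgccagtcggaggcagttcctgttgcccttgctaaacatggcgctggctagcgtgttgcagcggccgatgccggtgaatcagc
Psmb6: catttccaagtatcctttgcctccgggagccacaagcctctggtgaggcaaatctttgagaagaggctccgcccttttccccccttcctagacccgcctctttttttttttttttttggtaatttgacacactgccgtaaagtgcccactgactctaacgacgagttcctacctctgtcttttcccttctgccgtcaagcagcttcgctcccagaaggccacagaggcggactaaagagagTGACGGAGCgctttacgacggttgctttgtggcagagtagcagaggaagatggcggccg
Psmb8: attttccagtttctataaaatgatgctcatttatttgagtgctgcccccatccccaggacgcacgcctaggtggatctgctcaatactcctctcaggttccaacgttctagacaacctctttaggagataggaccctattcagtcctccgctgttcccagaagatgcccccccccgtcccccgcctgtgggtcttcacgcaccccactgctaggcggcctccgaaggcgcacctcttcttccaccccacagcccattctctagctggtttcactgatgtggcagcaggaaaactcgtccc
Psmb9: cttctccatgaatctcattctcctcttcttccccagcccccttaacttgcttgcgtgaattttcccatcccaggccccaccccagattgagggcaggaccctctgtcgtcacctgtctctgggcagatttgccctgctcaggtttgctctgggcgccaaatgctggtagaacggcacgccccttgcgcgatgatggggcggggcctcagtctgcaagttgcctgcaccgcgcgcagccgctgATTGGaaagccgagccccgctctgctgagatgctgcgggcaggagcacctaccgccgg
The element begins 47 bases before the start in Psmb5 and 9 bases before it in Psmb6, and the CCAAT box begins 8 bases before the start in Psmb9. None of the 6 motifs searched was found in the Psmb8 window.

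The search covered the 42 members with a listed promoter, on both strands; Psma8, Psmb1, Psmb2, Psmb7, Psmc3, Psmd3, Psmd7 and Psmg2 have none listed. The antioxidant response element was found in 6 members (Psmb5, Psmb6, Psmc6, Psmd9, Psmd12 and Psme4), or 14.3%, beside 14.0% of the 27025 genes listed and 17.1% of the 10202 tested genes listed. The median log2 fold change was 0.37 for these members and 0.28 for the other listed members, and the 6 included both Psmb5 (0.57) and Psme4 (-0.34). CCAAT was found in 35.7% of members and 42.7% of tested genes. The ETS site CCGGAAG was found in 15 members (35.7%, beside 19.6% of tested genes). The interferon-stimulated response element (GAAA, any 2 bases, GAAA) was found in 5 members (Psmb3, Psmd4, Psmd9, Psme1 and Psmg4; 11.9% beside 3.62%), none of them an immunoproteasome subunit. The nuclear respiratory factor site (GCGCA, any base, GCGC) was found in 16.7% beside 11.3%, and the E-box CACGTG in 9.52% beside 11.6%. The motifs were chosen after results were seen. Matches describe letters in a window, and binding was not measured.

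The chaperones Psmg1 to Psmg4 assemble the alpha ring and were expressed well below the subunits they assemble. Their log2 fold changes had a median of 0.28, made of 0.57 in mTOR Tg replicate 1 and -0.07 in mTOR Tg replicate 2. Psmg4 had 100, 84, 185 and 96 counts, or 5.49, 4.24, 9.07 and 4.59 normalised CPM. The first transgenic library was the highest and the second lay between the WT values, with a log2 fold change of 0.49 (SE 0.39). Psmg2 had 8.78, 9.90, 9.42 and 9.24 normalised CPM, with both transgenic libraries between the WT values and a log2 fold change of -0.003 (SE 0.22).

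The 6 ATPases of the 19S cap form the ring that unfolds substrates. Their median log2 fold change, 0.39, was the highest of the groups of proteasome genes as counted, with medians of 0.65 in mTOR Tg replicate 1 and 0.03 in mTOR Tg replicate 2. Psmc5 had 71.8, 72.1, 129 and 69.8 normalised CPM. The transgenic libraries thus stood on either side of WT, and the log2 fold change was 0.46 (SE 0.32). Psmc2 had 64.0, 61.3, 96.9 and 67.6 normalised CPM, with both transgenic libraries above WT and a log2 fold change of 0.39 (SE 0.24). Psmc6 differed from the rest of the ring in that mTOR Tg replicate 1 was not its highest library: the values were 43.6, 46.6, 45.0 and 47.4 normalised CPM, and the log2 fold change was 0.03 (SE 0.19).

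The other 19S subunits form the base scaffold, the ubiquitin receptors and the lid. In 7 of these 11 both transgenic libraries lay above both WT libraries, and in 1, Psmd1, both lay below, where 17.6% and 17% of all genes did. Psmd3, a lid subunit, had 116, 114, 175 and 122 normalised CPM, with the groups apart and a log2 fold change of 0.37 (SE 0.24). Psmd13, also of the lid, had 54.0, 52.9, 91.2 and 54.0 normalised CPM. Its second transgenic library exceeded WT replicate 1 only in the next digit, and the log2 fold change was 0.44 (SE 0.29). Psmd1, a large scaffold subunit of the base, had 97.6, 102, 95.9 and 95.6 normalised CPM and a log2 fold change of -0.06 (SE 0.18). In Psmd12, a lid subunit, the transgenic libraries were close to each other, at 48.7 and 43.9 beside 38.2 in both WT libraries, and its difference of 0.20 in mTOR Tg replicate 2 was the largest of the 11. Psmd12 was picked out after its values were seen.

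Psmd5, Psmd9 and Psmd10 help to assemble the cap and leave it once it is complete. Psmd9 had 27.1, 24.0, 44.1 and 26.5 normalised CPM, with the second transgenic library between the WT values and a log2 fold change of 0.46 (SE 0.29). Psmd5 had 40.9, 46.0, 40.0 and 45.1 normalised CPM. It was lowest in mTOR Tg replicate 1, the opposite of Psmd9, and its log2 fold change was -0.03 (SE 0.20). Psmd10 lay between them at 0.27 (SE 0.24).

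The activators open the gate of the core without a 19S cap. Psme1 and Psme2 build the interferon-responsive ring that works with immunoproteasomes. They lie on opposite strands of chromosome 14, with 5911 bases between them. Psme1 had 136, 121, 178 and 122 normalised CPM and Psme2 had 61.9, 52.4, 80.6 and 60.2. In both genes mTOR Tg replicate 1 was highest and the second transgenic library lay between the WT values, with log2 fold changes of 0.22 (SE 0.25) and 0.30 (SE 0.23). The count ratio of Psme1 to Psme2 was 2.20, 2.32, 2.21 and 2.03, a narrow range beside the levels themselves. Psme4, which forms a single-chain activator, had 72.7, 79.5, 49.2 and 71.2 normalised CPM. Both transgenic libraries were below both WT libraries, and the log2 fold change of -0.34 (SE 0.24) was the lowest of all members. Psmf1, an inhibitor of the core, and Psme3, the nuclear activator, had log2 fold changes of 0.06 (SE 0.22) and 0.03 (SE 0.19). Psme2b, an intronless copy that is 99.4% identical to Psme2 over 794 bases, had 13, 5, 1 and 15 counts; reads of the pair may have been split between them, and its log2 fold change of -0.30 has an SE of 1.08.

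The tissue-restricted subunits were at the floor: Psma8, of the testis, had 1 count in 1 WT library, and Psmb11, of the thymus, had 0 in all 4, and neither was tested. Psmc3ip, which is no proteasome part, had 6.75, 6.11, 12.1 and 7.08 normalised CPM. Its log2 fold change of 0.57 (SE 0.33) was the highest of the 48 members, and its transgenic libraries were both above WT.

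Levels can be compared between genes per transcript length. In WT, the 14 constitutive core subunits ranged from 27.0 normalised CPM per kilobase (Psma2) to 104 (Psmb6), with a median of 61.1. The ATPases ranged from 20.2 to 54.7, the other 19S subunits from 20.1 to 53.3, the immunoproteasome subunits from 8.81 to 16.3, the 19S assembly factors from 9.85 to 12.7 and the 20S chaperones from 7.18 to 9.60. The core and 19S ranges overlapped, and those of the immunoproteasome subunits and assembly factors lay below them. Psme1 had the highest level of all, at 116 per kilobase. Per kilobase of coding sequence the core subunits ranged from 52.7 to 132 (Psmb4), the immunoproteasome subunits from 18.1 to 29.2, and Psme1 stood at 173, and the immunoproteasome range then reached the lowest 19S subunit, at 27.9. The 19S assembly factors, at 26.2 to 38.4 on that scale, no longer lay below the 19S subunits. Of the detected members Psme2b was lowest, at 0.577 per kilobase.

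Proteasome transcripts are short, with a median of 1435 bases beside 3060 for all tested genes, and the difference of mTOR Tg replicate 1 from WT varied with transcript length over all genes. Among the 9 members under 1000 bases its median difference was 0.73, beside 0.56 for the 746 genes of that length. It was 0.51 for the 16 members from 1000 to 1500 bases (all genes 0.45), 0.52 for the 11 from 1500 to 2000 (all genes 0.34), 0.26 for the 8 from 2000 to 3000 (all genes 0.13), and -0.09 for the 4 above 3000 (all genes -0.32). The members therefore lay above other genes of their length in each class. In the 4 classes up to 3000 bases this margin was smaller than the difference from WT, and above 3000 bases it was larger and of the opposite sign. Over the 48 members the difference correlated with length in mTOR Tg replicate 1 (Spearman's rho -0.44, Pearson's r with log10 length -0.32; without Psme2b -0.52 and -0.66), and in mTOR Tg replicate 2 gave rho 0.23 and r -0.01, or 0.30 and 0.18 without Psme2b. Genes in 1 library are not independent replicates, so these values are descriptions. Of the 8 members that were not highest in mTOR Tg replicate 1 (Psmc6, Psmd1, Psmd5, Psmd11, Psme2b, Psme3, Psme4 and Psmg2), 6 were longer than 2000 bases, and of the other 40 members 6 were.

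**Figure D4:**
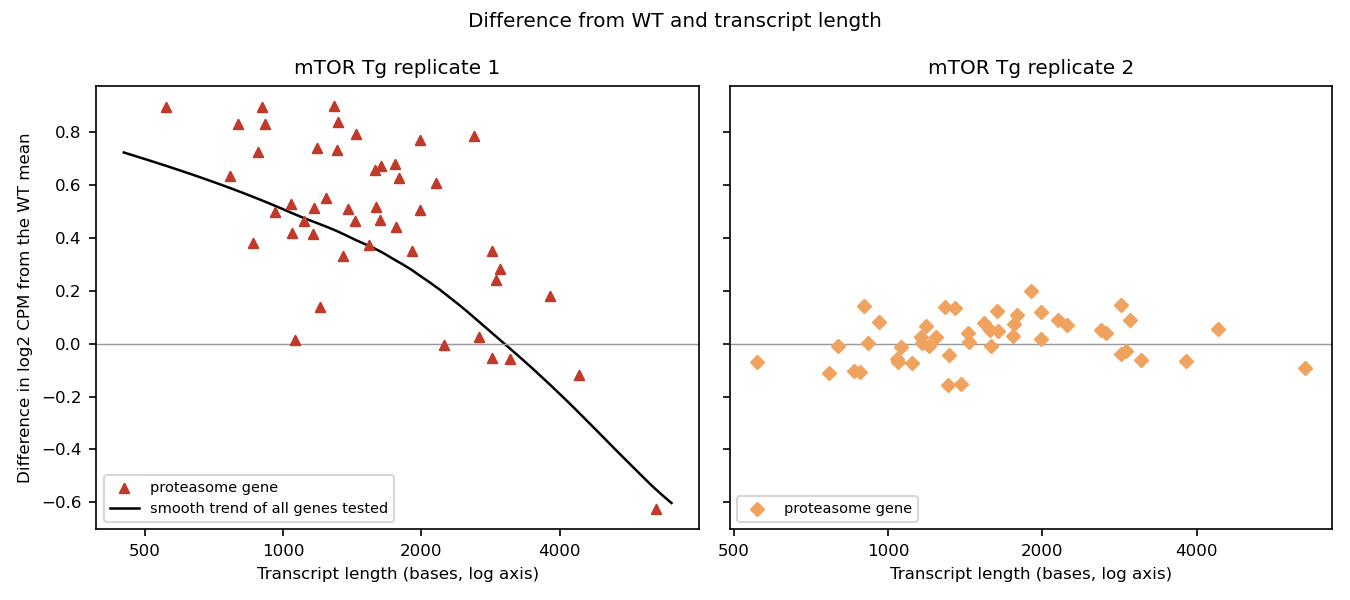
Difference in log2 CPM from the WT mean against transcript length (log axis), with 1 panel per transgenic library, 47 tested members as points (Psme2b not drawn) and, for mTOR Tg replicate 1, the smooth trend of all tested genes as a line. Points and line slope downward with length in mTOR Tg replicate 1, and the points of mTOR Tg replicate 2 stay within 0.2 of 0.

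When each library's trend with length and GC content was removed, the median log2 fold change of the members went from 0.28 to 0.14, the median in mTOR Tg replicate 1 from 0.50 to 0.24, and that in mTOR Tg replicate 2 from 0.02 to 0.03. After the correction 39 of 48 members were above 0, beside 51.8% of all genes, and edgeR called 0 members and 0 genes (0%). Both transgenic libraries then lay above both WT libraries for 17 members, where 17.8% of all genes did, and below both for 2, where 17.2% did. Of the 7 alpha subunits 3 were then above, beside 0 as counted. The same count went from 2 to 4 for the ATPases and from 3 to 4 for the constitutive beta ring. It fell from 7 to 5 for the other 19S subunits and from 2 to 0 for the immunoproteasome subunits. The medians moved by different amounts. Within mTOR Tg replicate 1 the median of the immunoproteasome subunits went from 0.47 to 0.02, that of the 20S chaperones from 0.57 to 0.01 and that of the constitutive beta ring from 0.64 to 0.16. That of the 19S ATPases went from 0.65 to 0.38, of the other 19S subunits from 0.51 to 0.28, of the alpha ring from 0.51 to 0.28 and of the 19S assembly factors from 0.46 to 0.41. In the fit, the 19S assembly factors then had a higher median (0.24) than the ATPases (0.21). Psme4, at 6491 bases among the longest members, went from -0.34 to 0.03 in the fit, and Psmb9 from 0.24 to -0.01. Psmb5 went from 0.57 to 0.19 in the fit and was then no longer the highest subunit, as Psma3 stood at 0.39.

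**Figure D5:**
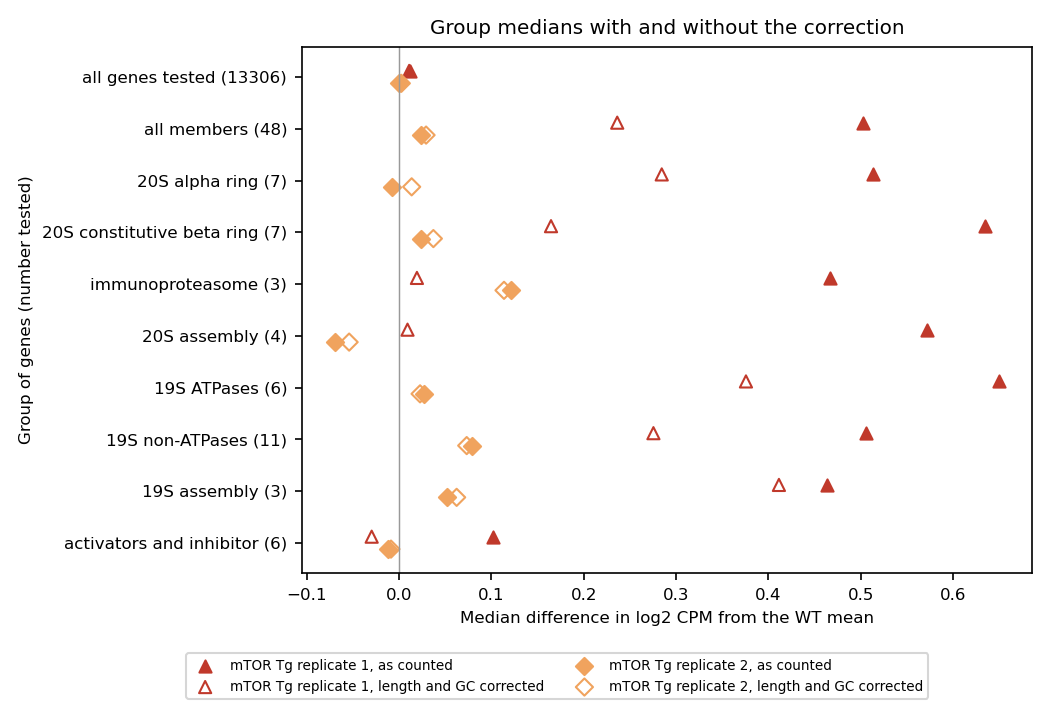
Median difference in log2 CPM from the WT mean for each group of genes, as counted (filled) and after the trend with length and GC content was removed (open), for both transgenic libraries; the single gene Psmc3ip has no line of its own. In mTOR Tg replicate 1 the immunoproteasome subunits and the 20S chaperones move to near 0 (0.02 and 0.01) and the 19S groups stay between 0.28 and 0.41.

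Other genes of the pathway were taken from a list of 39 names, of which 36 were in the table and tested, and edgeR called 0 of them. Partners of assembly and the cap stood closest to the subunits, with 7 of 8 above 0 and a median of 0.26. Pomp, the maturation factor of the core, had 72.6, 69.0, 122 and 68.3 normalised CPM (0.42, SE 0.31), with mTOR Tg replicate 1 high and mTOR Tg replicate 2 just under WT. Adrm1, a ubiquitin receptor of the cap, had 92.1, 92.7, 159 and 94.4 (0.45, SE 0.29). The transcription factors of proteasome genes and the proteins that process them had 4 of 9 above 0 and a median of -0.07, and 6 of 9 and 0.08 after the length and GC correction. Nfe2l1, which is known to drive proteasome genes when the proteasome is impaired, had 254, 247, 241 and 285 normalised CPM (0.07, SE 0.20), and Nfe2l2, the oxidative stress factor, had 207, 200, 181 and 182 (-0.17, SE 0.18). Ddi2, the protease that activates Nfe2l1, had 131, 162, 116 and 111 (-0.37, SE 0.20), with both transgenic libraries below WT.

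Among shuttle factors, which carry ubiquitinated proteins to the proteasome, 4 of 6 were above 0 with a median of 0.05. Sqstm1, the autophagy receptor p62, had 383, 351, 507 and 455 normalised CPM, and here both transgenic libraries were well above WT, with a log2 fold change of 0.39 (SE 0.20) and an edgeR adjusted p of at least 0.860. Ubqln2 had 55.7, 52.2, 35.7 and 50.9 (-0.32, SE 0.24). The ubiquitin genes had 4 of 5 above 0, with a median of 0.22, and 1 of 5 and -0.04 after the correction. Of the genes of class I presentation, 7 of 8 were above 0 with a median of 0.18, and this group's medians were 0.04 and 0.12 in the first and second transgenic library. Tap1, the peptide transporter subunit whose gene overlaps Psmb9 by 212 bases on the opposite strand, had 22.2, 20.7, 21.5 and 27.3 normalised CPM (0.19, SE 0.22). It was highest in mTOR Tg replicate 2, unlike Psmb9, which was highest in mTOR Tg replicate 1. In all, 14 members share exon bases with another gene, 10 of them with one on the opposite strand, among them Psmb7 with Nek6, Psmc3 with Slc39a13, Psmd13 with Sirt3 and Psme1 with Emc9. The sources used here do not say whether counting used strand, and reads from such overlaps cannot be told apart.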

How the data were processed

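RNA was extracted with RNeasy Mini columns and sequenced with Illumina libraries, per the labels. The authors' deposited values are whole-number read counts per gene symbol, and the submitters' processing notes name HISAT2, edgeR and mm10; the counting program, its strand setting and the annotation were not given in the sources used here. Genes with at least 10 counts in enough samples for the group size were kept (edgeR 4.0.16 in R 4.3.3), which left 13306, scaled by TMM and tested with glmQLFit and glmQLFTest; p-values were adjusted by Benjamini-Hochberg over all of them, with a threshold of 0.05. Normalised CPM use the TMM library sizes, and per-library log2 differences a prior count of 2. Lengths (all 50 members, 97.0% of symbols), positions and overlaps come from GENCODE M21 on GRCm38, 1 principal transcript per gene. The length and GC correction subtracted a loess trend (span 0.5) per library as an offset. Alternatives used DESeq2 1.42.0 and limma 3.58.1.

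Genes were named by role and rule: the catalytic subunits and their immunoproteasome counterparts, the extremes of fold change and the smallest p in each group, the extremes of level, members not tested, and, of the pathway, the smallest p in each direction plus Pomp, Nfe2l1, Nfe2l2 and Tap1. Members, lists, motifs and markers were chosen with earlier results of these data known. Replicate numbers were not used to pair the samples in the main fit. Deviations of same-numbered samples from their group means correlated at 0.0708 over 13306 genes. With 2 samples a group that value cannot decide whether the numbers mark a pairing.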

Additional observations from a re-analysis of the deposited data

How the results depend on the processing

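Counts of called genes moved with the samples and the tool. The fit with a replicate block called 37 genes and DESeq2 called 13, each with 0 members, where the fit without the block called 0. Leaving out 1 library gave 11 to 6197 called genes and 0 to 35 called members, all 35 of them without mTOR Tg replicate 2. Over the same 4 omissions the median log2 fold change ranged from 0.023 to 0.50 for all members, -0.0088 to 0.51 for the alpha ring, 0.023 to 0.64 for the constitutive beta ring, 0.12 to 0.47 for the immunoproteasome, -0.076 to 0.57 for the 20S chaperones, 0.027 to 0.65 for the 19S ATPases, 0.078 to 0.51 for the other 19S subunits, 0.050 to 0.46 for the 19S assembly factors, -0.017 to 0.24 for the activators and inhibitor, and 0.14 to 0.91 for Psmc3ip. The immunoproteasome median was 0.027 after the length and GC correction and 0.016 with the correction and the replicate block; in the same fits the 20S chaperones turned to -0.034 and -0.034, and the constitutive beta ring was at 0.084 and 0.083.

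Several single genes changed sign, some of them far from 0 as counted. Under library totals alone Psmc6 was at -0.028, and under upper quartile scaling Psmg2 was at 0.027; these scalings put the median of all genes at -0.054 and 0.038. After the length and GC correction Psmb9 was at -0.010, Psma1 at -0.016, Psmb2 at -0.11, Psme1 at -0.078, Psmd1 at 0.025, Psmd5 at 0.21, Psme4 at 0.028 and Ddi2 at 0.10. The same correction with the replicate block gave -0.017, -0.016, -0.11, -0.078, 0.023, 0.20, 0.024 and 0.040 for these genes. Omitting 1 library gave ranges that cross 0 for Psma1 (-0.0088 to 0.14), Psmb2 (-0.11 to 0.38), Psmb6 (-0.0083 to 0.83), Psmb10 (-0.16 to 0.73), Psmc5 (-0.044 to 0.84), Psmc6 (-0.017 to 0.081), Psmd5 (-0.12 to 0.056), Psmg2 (-0.089 to 0.086), Psmg4 (-0.079 to 0.90), Psme1 (-0.074 to 0.46), Psme2b (-3.12 to 0.60), Pomp (-0.051 to 0.78) and Nfe2l1 (-0.055 to 0.19). The same omissions gave log2 ratio differences of -0.50 to 0.14 for Psmb9 to Psmb6 and -0.18 to 0.32 for Psmb10 to Psmb7. Those for Psmb8 to Psmb5 (-0.43 to -0.022) and for the sums (-0.18 to -0.020) stayed below 0. The cause of these changes was not tested. With 2 libraries a group, and counts of 84 to 725 for the immunoproteasome genes and Psmg4, these data cannot separate differences of the size seen from the spread between libraries.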
